A study of Homo sapiens with 15 samples.

Results

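The genes described here are 9 transcriptional and splicing regulators that hold or repress the epithelial state, the grainyhead-like factors GRHL1, GRHL2 and GRHL3, the OVO-like zinc finger factors OVOL1 and OVOL2, the epithelial splicing regulators ESRP1 and ESRP2, and the zinc finger repressors ZEB1 and ZEB2. They were chosen by gene symbol among the 61544 genes of the count table, and 8 of the 9 passed the filter on low counts. The cells were HCC95, an established line from a human lung squamous cell carcinoma (LUSC). Each of 5 groups had 3 RNA-seq libraries, and the groups were HCC95 transfected with siNC1, a negative control small interfering RNA (siRNA), or with siKLF5b, siTP63b, siSOX2b or siGRHL2a, siRNAs against KLF5, TP63, SOX2 and GRHL2. HCC95 is 1 cell line, each target was knocked down with 1 siRNA, and nothing in the labels says that the libraries of a group came from separate cultures, so the p-values measure the spread between libraries, which may be technical.

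Grainyhead-like factors bind DNA in epithelia and activate genes of cell junctions and barrier function. OVOL factors are repressors that keep mesenchymal programs off, and the ESRP proteins bind RNA and direct the splicing of epithelial isoforms of many transcripts. ZEB1 and ZEB2 bind E-box sequences, repress epithelial genes such as CDH1, and are themselves repressed by the miR-200 family and miR-205, and mutual repression between GRHL2, the OVOL factors and ZEB1 is a known feature of epithelial-mesenchymal transition (EMT).

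Library totals ranged from 15655495 to 24845273 counts for siNC1 and siKLF5b (6 libraries) and from 22255856 to 34229063 for siTP63b, siSOX2b and siGRHL2a (9 libraries). These sets of libraries carry different column names in the deposited table. Among genes with 20 to 500 counts, 49.7% to 50.7% had an even count in the first set and 66.1% to 69.0% in the second. The column set and the knockdown cannot be told apart across the sets, so siKLF5b was compared with siNC1, and siTP63b, siSOX2b and siGRHL2a with each other. The comparisons between siTP63b, siSOX2b and siGRHL2a share libraries and are not independent of each other. In each set the library group with the siRNA had the lowest level of its target. KLF5 was 72.5 ± 1.1 CPM (counts scaled to library size, per 1e6; SD, n = 3) in siKLF5b and 112.9 ± 8.7 in siNC1, TP63 was 363.3 ± 22.3 CPM in siTP63b and at least 646.8 in each library of the other knockdowns of its set, and SOX2 was 8.97 ± 1.63 CPM in siSOX2b against at least 18.4. The 7 squamous markers, TP63, SOX2, KRT5, KRT6A, KRT14, DSG3 and PKP1, summed to 5829 to 10990 CPM per library. Fibroblast and endothelial markers each summed to at most 15.1 CPM, immune markers to 39.8, neuroendocrine markers to 1.44 and adenocarcinoma markers to 11.2.

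The length column gives each gene its full extent from first to last base, introns included, so intronic reads count. In 2321 of 2321 pairs of a gene lying inside another (inner genes averaging 100 counts or more), on the same strand or on opposite strands, the outer gene had at least as many counts as the inner gene in all 15 libraries. A read inside both genes therefore appears in both counts, and this touches several of the regulators. Coordinates are those of the deposited table (hg38). GRHL1 spans chr2:9951693-10002277 (+ strand) and is overlapped by the antisense transcripts ENSG00000289033 and ENSG00000188525, which had 39.9% and 12.8% as many counts as GRHL1. GRHL3 spans chr1:24199558-24364482 (+) and holds GRHL3-AS1 wholly, with 31.3% as many counts, and a part of STPG1. OVOL2 spans chr20:17956979-18059188 (-) and holds MGME1, a mitochondrial nuclease gene with 55.4% as many counts, and 43.8% of the span of SNX5, a sorting nexin gene with more counts than OVOL2. OVOL1 spans chr11:65787063-65797214 (+) and holds nearly all of ENSG00000255404, with 39.5% as many counts. ZEB1 spans chr10:31318495-31529814 (+) and holds the pseudogene SPTLC1P1, with 27.6% as many counts. GRHL2 (chr8:101492439-101669726, +), ESRP1 (chr8:94641074-94707466, +) and ESRP2 (chr16:68229033-68238102, -) hold no inner gene with more than 1.11% of their counts. ESRP2 touches the ends of NFATC3 and ENSG00000262160. GRHL2 touches an end of the antisense transcript ENSG00000254024, of which 0.2% of the span lies inside, with 10.1% as many counts as GRHL2. The values of OVOL2, OVOL1, GRHL3 and ZEB1 are therefore also given after subtraction of the counts of the genes that lie inside, an alternative chosen after seeing the data. Reads of the regulator itself within an inner gene are counted for both, so the subtraction removes them too. A call on an inner gene is thus not separate from that on the regulator.

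Per kilobase of merged exons in siNC1, OVOL2 stood highest as deposited, at 90.4 CPM per kb, with MGME1 and an unknown part of SNX5 included. With the inner genes subtracted, 35.9% of its counts remained, 71.45 of 199.1 CPM. That places OVOL2 below ESRP1 on this scale. ESRP1 reached 44.6 CPM per kb, GRHL2 22.3 and GRHL3 7.96, while ESRP2 was at 1.98, GRHL1 at 0.836, OVOL1 at 0.501, ZEB1 at 0.479 and ZEB2 at 0.0036. Within each family the order ESRP1 over ESRP2, GRHL2 over GRHL3 over GRHL1, OVOL2 over OVOL1 and ZEB1 over ZEB2 was the same per kilobase of span. Among the regulators without a large inner gene ESRP1 was highest on both scales. GRHL2 stood above ESRP2 per kilobase of exons and below it per kilobase of span, at 0.761 against 1.14 CPM per kb. As deposited, both ZEB genes stood at the bottom on both scales, with ZEB1 close to OVOL1 per kilobase of exons. With the inner genes subtracted, 51.2% of OVOL1 counts and 94.1% of ZEB1 counts remained in siNC1. That places OVOL1 below ZEB1 per kilobase of exons, but not per kilobase of span.

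**Figure D1:**
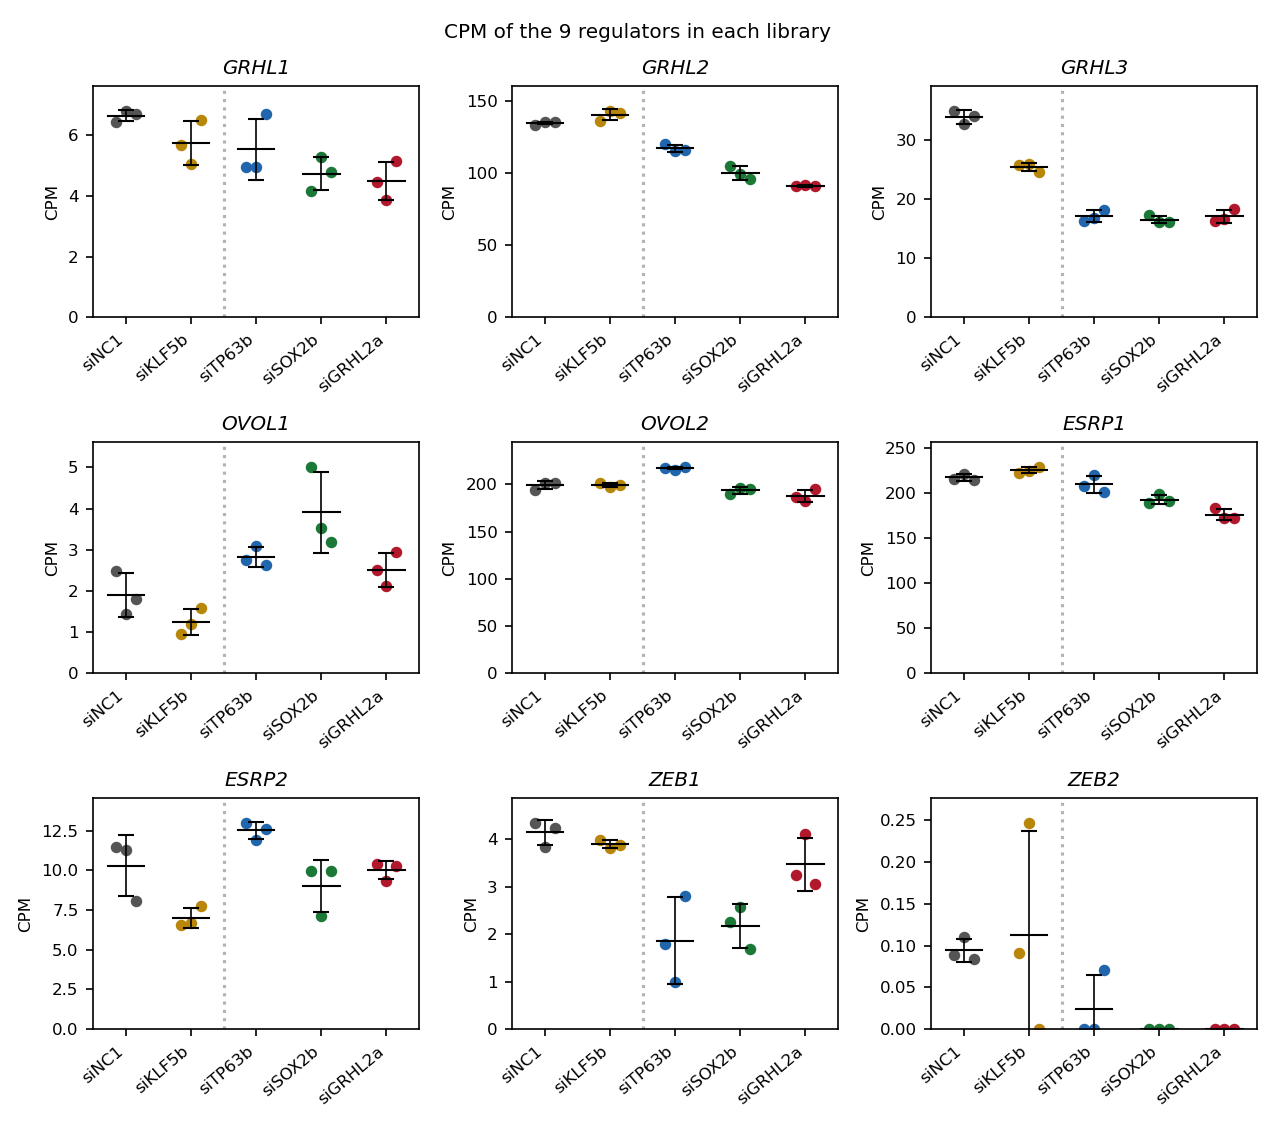
CPM (y axis, linear, from 0) of each of the 9 regulators in the 5 groups (x axis). Points are libraries, horizontal lines are means, whiskers are SD (n = 3), and the dotted line parts the column sets. GRHL2 is lowest in siGRHL2a at 90.8 to 91.9 CPM, ZEB1 is at most 2.81 CPM in every siTP63b and siSOX2b library, and ZEB2 is at or near 0 throughout.

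Between siKLF5b and siNC1 no regulator was a differentially expressed gene (DEG), defined here by a size of log2FC over 0.75 with an adjusted p under 0.05. GRHL3 and ESRP2 were lower in siKLF5b by smaller amounts, and GRHL2, OVOL2 and ESRP1, the most abundant of the regulators, had log2FC values between 0.00 and 0.06. Thus 0 of 8 tested regulators were DEGs, where 3.26% of the 25108 genes tested were, and 2 of 8 passed an adjusted p below 0.05 at any log2FC, where 23.2% of all genes did. Their median log2FC was -0.16, and that of all genes was -0.01. Adjusted p-values are those of edgeR's quasi-likelihood test over all genes tested.

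Between siTP63b and siSOX2b, GRHL2, OVOL2, ESRP1 and ESRP2 were higher in siTP63b. The count of DEGs was 0 of 8, with 6.7% among all genes, and 4 of 8 passed the adjusted p alone, with 31.8% among all genes. The median log2FC was 0.14. Against siTP63b, siGRHL2a libraries had more ZEB1 and less GRHL2, OVOL2 and ESRP1. ZEB1 was the 1 DEG of 8, with 5.39% among all genes, and 4 of 8 passed the adjusted p, with 27.1% among all genes. The median log2FC was -0.23. Against siSOX2b, siGRHL2a libraries had more ZEB1 and less GRHL2, ESRP1 and OVOL1. There 0 of 8 were DEGs, with 3.32% among all genes, 4 of 8 passed the adjusted p, with 24.5% among all genes, and the median log2FC was -0.06. The medians of all genes in these comparisons lay between 0.00 and 0.02. With 8 genes tested, 1 gene more or less moves such a share widely, and no difference from all genes was read from these counts.

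**Figure D2:**
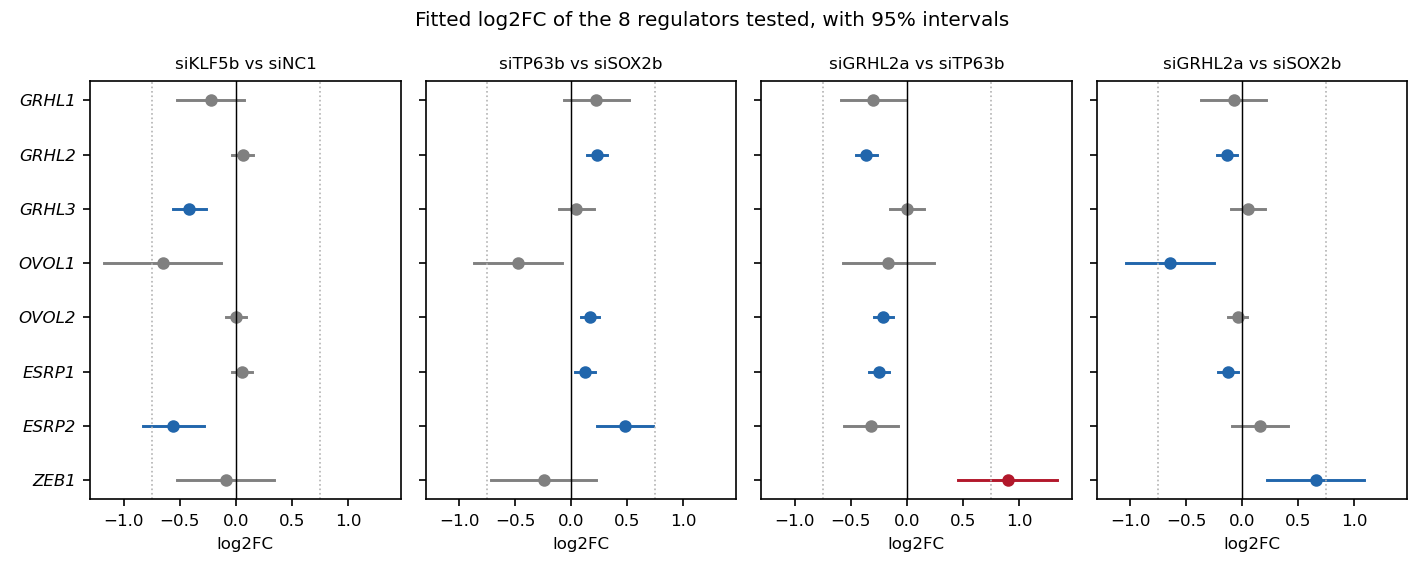
Fitted log2FC (x axis, first group over second) of the 8 regulators tested in 4 comparisons, with 95% intervals. Red marks a DEG, blue an adjusted p below 0.05 without the log2FC threshold, grey neither, and dotted lines stand at 0.75 above and below 0. ZEB1 in siGRHL2a over siTP63b, at 0.90, is the 1 red point.

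GRHL2 is the target of siGRHL2a. Its level was 90.8, 91.9 and 91.1 CPM in the siGRHL2a libraries, 120.0, 115.5 and 116.4 in siTP63b, and 105.1, 99.6 and 96.0 in siSOX2b. It was 133.8, 135.3 and 135.7 CPM in siNC1 and 136.2, 143.4 and 142.1 in siKLF5b. None of these groups overlapped, and the siGRHL2a libraries were the lowest of the 15. The decrease under siGRHL2a was a log2FC of -0.36 (SE 0.046, adjusted p = 3.04e-07) against siTP63b and -0.14 (SE 0.047, adjusted p = 0.0313) against siSOX2b. GRHL2 was 0.23 higher on the log2 scale in siTP63b than in siSOX2b (SE 0.046, adjusted p = 0.000292). The comparison with siSOX2b passed the threshold in 10 of 16 alternative settings and without siSOX2b replicate 1 had an adjusted p of 0.114, the highest of a range from 0.00408. In siKLF5b over siNC1 the log2FC was 0.06 (95% interval -0.03 to 0.15), with an adjusted p of 0.414. In bulk RNA, less RNA in every cell and fewer cells with the transcript cannot be told apart. The count covers introns as well as exons, and the protein was not measured in these files.

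GRHL3, the family member best known from epidermal barrier formation and wound closure, was lower in siKLF5b. Its levels were 25.8, 25.9 and 24.7 CPM in siKLF5b and 35.0, 32.7 and 34.2 in siNC1, with no overlap. The log2FC was -0.41 (SE 0.077, adjusted p = 0.000119), and all 16 alternative settings kept it past the adjusted p, between -0.45 and -0.38. The count of the inner antisense gene GRHL3-AS1, which shares reads with GRHL3, was lower as well (log2FC -0.38, adjusted p = 0.0224). After the inner counts were subtracted GRHL3 fell by 0.45 on the log2 scale (adjusted p = 0.000512). Over all settings the adjusted p-values for GRHL3 ran from 4.58e-06 to 0.00129. STPG1, which overlaps GRHL3 in part, stood at 17.5 CPM in both groups. In siTP63b, siSOX2b and siGRHL2a the GRHL3 means were 17.1 ± 1.0, 16.6 ± 0.6 and 17.1 ± 1.1 CPM (SD, n = 3), with overlapping libraries and adjusted p-values from 0.713 to 0.983. All 9 of these libraries lay below the 6 of the other column set, at 16.2 to 18.4 CPM, a difference that cannot be told apart from the set.

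RefSeq lists 2 starts for GRHL3. The promoter window around the first is shown because it holds 2 matches to CACCTG, an E-box read by ZEB and SNAI factors, in capitals, the only matches of 3 motif searches in either window. It lies at chr1:24319107-24319406 on the + strand of GRCh38.p14 (RefSeq), 5′ to 3′.
GRHL3: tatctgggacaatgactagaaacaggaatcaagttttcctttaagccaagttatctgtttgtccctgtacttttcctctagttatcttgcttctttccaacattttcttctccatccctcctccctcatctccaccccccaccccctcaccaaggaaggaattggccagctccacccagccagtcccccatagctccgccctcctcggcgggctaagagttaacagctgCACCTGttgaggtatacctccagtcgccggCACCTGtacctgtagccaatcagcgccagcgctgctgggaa
The matches start at positions -21 and 9 from the start site. CACCTG, searched on both strands, was in 20.6% of 35116 RefSeq promoter windows. The grainyhead motif AACCGGTT, in 0.134% of windows, and the looser AACNNGTT, in 3.52% and including it, were in neither window of GRHL3.

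GRHL1, which acts in desmosome gene expression in epidermis, was low and did not pass the test in any comparison. The libraries held 5.06 to 6.49 CPM in siKLF5b and 6.43 to 6.81 in siNC1, and 4.96 to 6.70 in siTP63b, 4.16 to 5.28 in siSOX2b and 3.86 to 5.14 in siGRHL2a. The log2FC of largest size was -0.30 (95% interval -0.59 to -0.01), siGRHL2a over siTP63b, with an adjusted p of 0.133 (0.0612 to 0.506 over the alternative settings). The overlapping antisense transcripts were at most 2.71 CPM on average and passed no test either. GRHL1 has 1 RefSeq start, and none of the 3 motifs was found there.

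OVOL2 was higher in siTP63b than in either other knockdown of its set. It was counted at 217.4, 215.7 and 218.6 CPM in siTP63b, 189.4, 196.2 and 195.2 in siSOX2b and 186.6, 182.3 and 194.6 in siGRHL2a. The siTP63b libraries lay above all 6 others, while siSOX2b and siGRHL2a overlapped. The log2FC was 0.17 over siSOX2b (SE 0.043, adjusted p = 0.00312) and -0.21 for siGRHL2a over siTP63b (SE 0.043, adjusted p = 0.000327). With the inner genes, of which MGME1 had the most counts, subtracted, 35.9% to 43.7% of the counts remained, and these log2FC values grew to 0.35 (adjusted p = 4.65e-06) and -0.32 (adjusted p = 2.02e-05). The adjusted p stayed at or below 0.0291 and 0.00556 over all alternative settings. SNX5, of which 43.8% of the span lies inside OVOL2 on the same strand, moved alongside, with a log2FC of 0.31 in siTP63b over siSOX2b (adjusted p = 1.41e-06) and -0.22 in siGRHL2a over siTP63b (adjusted p = 0.000226). Its part in the OVOL2 counts was not tested. In siKLF5b and siNC1 OVOL2 was 199.3 ± 1.7 and 199.1 ± 4.2 CPM (SD, n = 3).

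OVOL1, with 21 to 164 counts per library, was lower in siGRHL2a than in siSOX2b. The values were 2.50, 2.11 and 2.94 CPM in siGRHL2a, 5.01, 3.52 and 3.18 in siSOX2b and 2.74, 3.09 and 2.64 in siTP63b. The siGRHL2a libraries lay below the siSOX2b libraries, the nearest pair being 2.94 and 3.18. The log2FC was -0.65 (SE 0.20, adjusted p = 0.0176, over the alternative settings 0.00882 to 0.289). The count of the inner antisense gene ENSG00000255404, which shares reads with OVOL1, passed the DEG thresholds there (log2FC -1.04, adjusted p = 0.0135). With the inner counts subtracted the OVOL1 value was -0.35 (adjusted p = 0.289). Which of the 2 genes the shared reads came from was not tested. Without siSOX2b replicate 1 the adjusted p was 0.171 and without siGRHL2a replicate 2 it was 0.0875. Between siTP63b and siSOX2b the libraries did not overlap either, and the log2FC of -0.48 had an adjusted p of 0.0706, which came to 0.0364 without siSOX2b replicate 3. In siKLF5b OVOL1 was 0.961, 1.19 and 1.59 CPM and in siNC1 2.48, 1.43 and 1.80, overlapping by 1 library of each group. That log2FC of -0.65 had an adjusted p of 0.0756, which came to 0.0407 without siNC1 replicate 2, to 0.0467 without siKLF5b replicate 3 and to 0.536 after the subtraction.

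**Figure D3:**
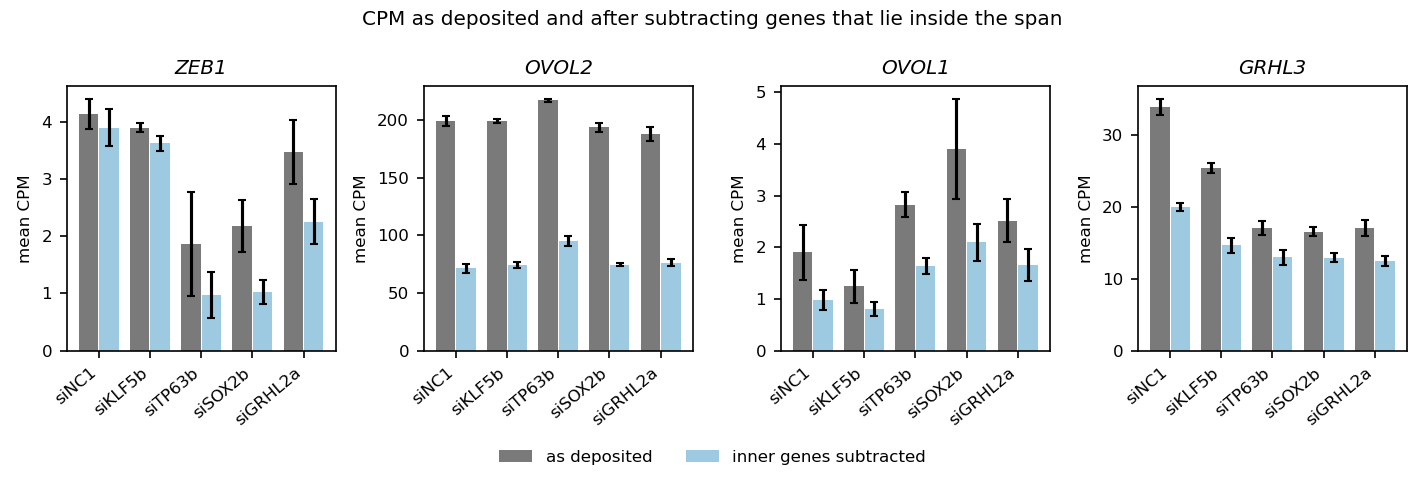
Mean CPM (y axes, linear, from 0) of ZEB1, OVOL2, OVOL1 and GRHL3 in the 5 groups, as deposited (grey) and after subtracting the counts of genes lying inside the span (blue), with SD bars (n = 3). Between 92.9% and 94.1% of ZEB1 counts remain in siNC1 and siKLF5b and 47.2% to 64.9% in the other groups.

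ESRP1, the more abundant of the splicing regulators, was highest in siTP63b and lowest in siGRHL2a within its set. Libraries held 207.6, 220.2 and 200.8 CPM in siTP63b, 188.8, 198.6 and 190.7 in siSOX2b and 183.1, 171.8 and 172.6 in siGRHL2a, and no pair of groups overlapped. The log2FC of siGRHL2a over siTP63b was -0.25 (SE 0.046, adjusted p = 7.05e-05), and every alternative setting kept the adjusted p at or below 0.00157. The step from siSOX2b to siGRHL2a (log2FC -0.13, adjusted p = 0.0333) and that from siSOX2b to siTP63b (log2FC 0.12, adjusted p = 0.0426) were less stable. Their adjusted p ran from 0.00355 to 0.108 and from 0.0163 to 0.217 over 16 alternative settings, and 5 and 6 of these settings did not pass 0.05. The highest were without siGRHL2a replicate 2 and without siTP63b replicate 2. In siKLF5b ESRP1 was 222.6 to 229.1 CPM and in siNC1 214.6 to 221.5, a log2FC of 0.05 (95% interval -0.04 to 0.14) with an adjusted p of 0.47.

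ESRP2, a paralog with overlapping splicing targets, was lower in siKLF5b than in siNC1. It stood at 6.59, 6.66 and 7.76 CPM in siKLF5b and 11.5, 11.3 and 8.09 in siNC1, so that siNC1 replicate 3 was close to the siKLF5b libraries without overlapping them. The log2FC was -0.56 (SE 0.14, adjusted p = 0.00296), and -0.72 to -0.47 over the alternative settings, all past the adjusted p. NFATC3 and ENSG00000262160, which each share under 4% of their span with ESRP2, had log2FC values of -0.35 (adjusted p = 0.000577) and -0.45 (adjusted p = 0.00486) in the same comparison, and their part in it was not tested. ESRP2 was also higher in siTP63b (11.9 to 13.0 CPM) than in siSOX2b (7.15 to 9.97), by a log2FC of 0.48 (SE 0.13, adjusted p = 0.00364), with an adjusted p of 0.0552 without siSOX2b replicate 2, the highest over the alternatives. For siGRHL2a (9.35 to 10.4 CPM) over siTP63b the log2FC of -0.32 had an adjusted p of 0.0513 and between 0.0341 and 0.161 over the alternatives, although the libraries did not overlap. Against siSOX2b it was 0.16 (95% interval -0.09 to 0.40).

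ZEB1, the repressor at the other pole of the circuit, was low in all groups and higher in siGRHL2a than in the other knockdowns of its set. The libraries had 112, 136 and 100 counts in siGRHL2a, 55, 29 and 79 in siTP63b and 74, 85 and 38 in siSOX2b, which is 3.25, 4.10 and 3.06 CPM, 1.80, 0.986 and 2.81 CPM, and 2.26, 2.58 and 1.68 CPM. All siGRHL2a libraries lay above all 6 others, with 3.06 CPM against 2.81 as the closest values. Over siTP63b the log2FC was 0.90 (SE 0.23, adjusted p = 0.00279), and over siSOX2b it was 0.65 (SE 0.22, adjusted p = 0.0285), below the log2FC threshold. Without siTP63b replicate 2 the first of these was 0.59 (adjusted p = 0.0379, the highest of a range from 6.14e-05) and no longer a DEG. The second had an adjusted p of up to 0.139, without siGRHL2a replicate 2, and of 0.134 without siSOX2b replicate 3, with 0.000714 as the lowest.

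The inner pseudogene SPTLC1P1 took 47.9% and 52.8% as many counts as ZEB1 in siTP63b and siSOX2b and 35.1% in siGRHL2a, and 5.95% and 6.64% in siNC1 and siKLF5b. With it subtracted, ZEB1 had 70, 90 and 66 counts in siGRHL2a, 29, 17 and 39 in siTP63b and 36, 39 and 18 in siSOX2b. The siGRHL2a libraries then lay further above the others, with a log2FC of 1.22 over siTP63b (SE 0.24, adjusted p = 0.000214) and 1.11 over siSOX2b (SE 0.24, adjusted p = 0.000714), both past the DEG thresholds. SPTLC1P1 itself did not pass the test in these comparisons (adjusted p = 0.379 and 0.915). In siNC1 and siKLF5b ZEB1 was 4.14 ± 0.26 and 3.89 ± 0.08 CPM (SD, n = 3), a log2FC of -0.09 (95% interval -0.53 to 0.34, adjusted p = 0.825), and siTP63b over siSOX2b gave -0.25 (95% interval -0.72 to 0.22, adjusted p = 0.475, and 0.037 without siTP63b replicate 3). ZEB1-AS1, the divergent antisense gene with 1.7% of its span inside ZEB1, passed the test in none of the 4 comparisons (adjusted p from 0.253 to 0.916). An exact permutation test of 3 libraries against 3 cannot go below p = 0.1, which was its two-sided value for ZEB1 in siGRHL2a against each of the other knockdowns.

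RefSeq lists 7 starts for ZEB1. One window is shown because it holds 3 matches to CACCTG or its reverse complement CAGGTG, in capitals. It lies at chr10:31318966-31319265 on the + strand of GRCh38.p14, 5′ to 3′.
ZEB1: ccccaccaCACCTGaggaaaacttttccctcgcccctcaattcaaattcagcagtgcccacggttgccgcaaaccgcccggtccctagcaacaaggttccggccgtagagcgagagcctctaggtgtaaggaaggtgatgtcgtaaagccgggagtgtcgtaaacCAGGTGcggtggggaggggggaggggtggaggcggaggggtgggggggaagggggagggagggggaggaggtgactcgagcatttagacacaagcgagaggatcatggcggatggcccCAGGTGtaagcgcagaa
The matches start at positions -242, -85 and 33 from the start site. One further ZEB1 window, at chr10:31318167-31318466, held 1 match to CACCTG, and the window at chr10:31321410-31321709 held 1 match to AACNNGTT, while AACCGGTT was in none of the 7. ZEB2, with 1 start, had no match to any of the 3.

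ZEB2, the ZEB1 paralog at chr2:144364364-144521057 (-), was not tested. It had 2 counts in each siNC1 library, 2, 6 and 0 in siKLF5b, 0, 0 and 2 in siTP63b, and 0 in all 6 libraries of siSOX2b and siGRHL2a, 16 counts in all. A count of 0 allows up to 3 counts, which is 0.0876 to 0.135 CPM in those 6 libraries, for counting error only. These libraries belong to the set with more even counts, and if each fragment gave 2 counts there, which was not tested, the limit would be 6 counts or 0.175 to 0.27 CPM. No difference was detectable at this depth. The 6 genes overlapping ZEB2 were listed at 0 in every library.

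The miR-200 family and miR-205 target ZEB1 and ZEB2 through the seed, bases 2 to 8, shown in capitals. The mature forms (RefSeq, GRCh38.p14) are printed because they fall into groups by seed. The first 3 share AAUACUG, the next 2 share AACACUG, and miR-205-5p has CCUUCAU.
hsa-miR-200b-3p: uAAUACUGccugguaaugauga
hsa-miR-200c-3p: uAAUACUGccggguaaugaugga
hsa-miR-429: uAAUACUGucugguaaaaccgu
hsa-miR-200a-3p: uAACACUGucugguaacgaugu
hsa-miR-141-3p: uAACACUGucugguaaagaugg
hsa-miR-205-5p: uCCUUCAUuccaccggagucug
The libraries were made from polyadenylated RNA, so the counts are of host transcripts and precursors and not of mature miRNAs. Of 8 loci listed, 4 were tested. MIR205HG, the host of miR-205 (chr1:209432166-209432187 for miR-205-5p), was abundant at 421.6 ± 20.3 CPM in siTP63b, 609.5 ± 3.6 in siSOX2b and 612.2 ± 28.1 in siGRHL2a (SD, n = 3). It was lower in siTP63b than in siSOX2b (log2FC -0.53, adjusted p = 1.57e-10) and higher in siGRHL2a than in siTP63b (log2FC 0.54, adjusted p = 1.57e-10). Reads over the MIR205 locus inside it were 21.3 ± 2.6, 51.5 ± 3.3 and 34.0 ± 0.8 CPM, a log2FC of -1.27 in siTP63b over siSOX2b (adjusted p = 4.52e-14) and of 0.67 in siGRHL2a over siTP63b (adjusted p = 6.33e-08). In siGRHL2a over siSOX2b MIR205 was lower, by a log2FC of -0.60 (adjusted p = 3.63e-07), while MIR205HG had a log2FC of 0.01 (adjusted p = 0.941). MIR200CHG, the host of miR-200c and miR-141, was at 12 to 71 counts in these 9 libraries, and it was lower in siTP63b (log2FC -1.71, adjusted p = 0.000147) and in siGRHL2a (log2FC -1.14, adjusted p = 0.0063) than in siSOX2b. In siKLF5b over siNC1, MIR205HG and MIR205 were higher by log2FC values of 0.21 (adjusted p = 0.00128) and 0.39 (adjusted p = 0.00035). MIR200A, MIR200B, MIR200C and MIR429 had at most 5 counts in any library.

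A list of 35 epithelial genes linked to grainyhead and OVOL factors, all tested, held more lower than higher calls in both siGRHL2a comparisons. Against siTP63b, 7 were lower DEGs and 0 higher, 19 were lower and 6 higher at any log2FC, and the median was -0.25. Among all genes tested, 2.18% were lower and 3.21% higher DEGs there, and 13.6% were lower and 13.4% higher at any log2FC, with -0.01 to 0.02 for the medians of all genes over the 4 comparisons. The ETS factor gene EHF was 314.8 ± 20.01 CPM in siGRHL2a and 628.7 ± 30.8 in siTP63b (log2FC -0.998, adjusted p = 2.66e-15). The receptor gene ERBB3 was 42.3 ± 1.1 and 77.4 ± 2.6 CPM (log2FC -0.87, adjusted p = 2.75e-13). In siSOX2b EHF was 449.0 ± 24.0 and ERBB3 59.5 ± 2.8 CPM. For siGRHL2a over siSOX2b their log2FC values were -0.51 (adjusted p = 1.02e-08) and -0.49 (adjusted p = 9.9e-08), and neither was a DEG. Against siSOX2b, 1 was a lower DEG, the tight-junction gene CGN (log2FC -0.92, adjusted p = 4.53e-05), where 1.05% of all genes were lower DEGs. At any log2FC 10 were lower and 4 higher (11.8% and 12.7% of all genes), and the median was -0.11. Between siTP63b and siSOX2b, 4 were higher DEGs, among them CGN (log2FC 1.10, adjusted p = 2.13e-07), and 0 were lower, with 3.88% and 2.82% among all genes. At any log2FC 14 were higher and 5 lower (16.4% and 15.4% of all genes), and the median was 0.09. CDH1, the E-cadherin gene that ZEB factors repress, was 188.6 ± 1.7 CPM in siTP63b, 180.0 ± 9.3 in siSOX2b and 196.9 ± 11.4 in siGRHL2a, with log2FC values of 0.06 (adjusted p = 0.376) and 0.13 (adjusted p = 0.0493) for siGRHL2a over the others.

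Under siKLF5b, 16 of the 35 epithelial genes were lower and 2 higher at any log2FC, with a median of -0.20, where 12.9% of all genes were lower and 10.3% higher. The DEGs were 3 lower and 1 higher, where 1.37% and 1.89% of all genes were. The claudin gene CLDN4 fell from 16.8 ± 2.7 to 8.21 ± 0.51 CPM (log2FC -1.04, adjusted p = 5.44e-08) and PRSS8, a membrane-anchored serine protease gene, from 12.4 ± 1.4 to 6.78 ± 0.49 (log2FC -0.86, adjusted p = 4.91e-06). PERP, a desmosome component gene, was higher (log2FC 0.79, adjusted p = 2.14e-13). CDH1 was lower, at 160.4 ± 5.7 against 201.8 ± 2.2 CPM (log2FC -0.33, adjusted p = 5.48e-06).

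**Figure D4:**
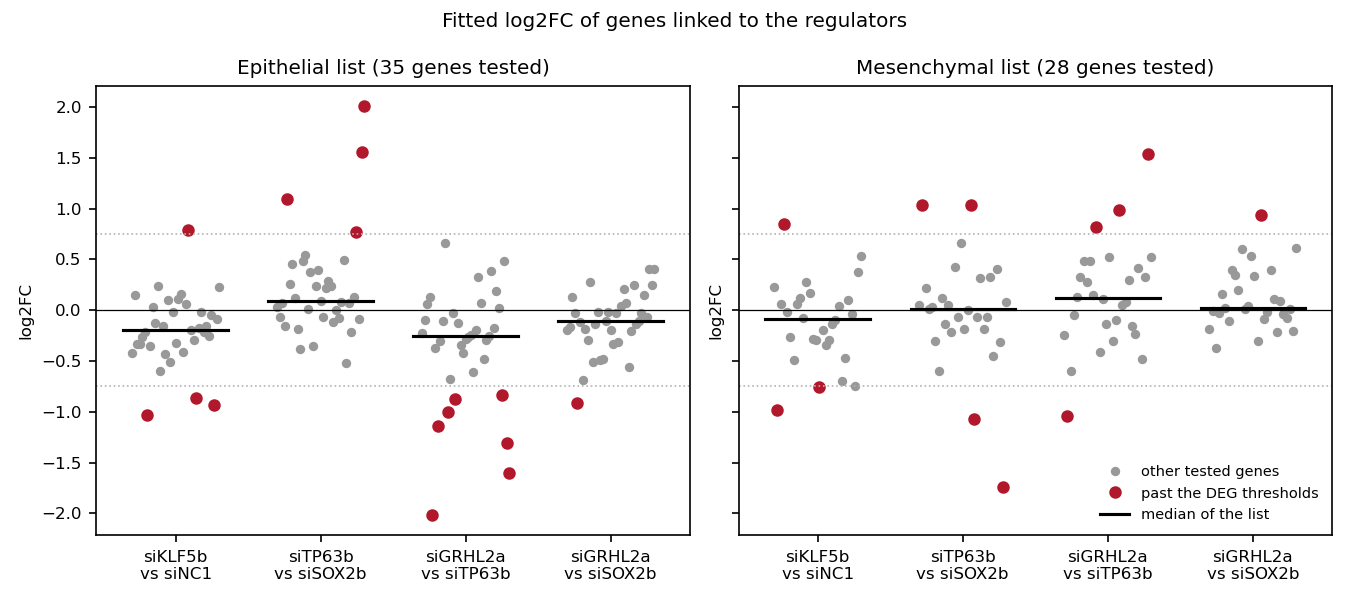
Fitted log2FC (y axis) of the 35 epithelial and 28 mesenchymal genes tested in the 4 comparisons (x axis). Red points are DEGs, grey points other tested genes, black bars the median of the list, and dotted lines stand at 0.75 above and below 0. In siGRHL2a over siTP63b the epithelial list has 7 red points, all below 0, and the mesenchymal list 3 above and 1 below.

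Among 28 mesenchymal genes linked to ZEB factors the calls went both ways. In siGRHL2a over siTP63b 3 were higher DEGs and 1 lower, 13 were higher and 6 lower at any log2FC, and the median was 0.12, where 3.21% of all genes were higher and 2.18% lower DEGs and 13.4% were higher and 13.6% lower at any log2FC. The matrix gene TNC was higher (log2FC 1.53, adjusted p = 8.34e-16) and the receptor kinase gene AXL was lower (log2FC -1.04, adjusted p = 6.13e-13). Over siSOX2b S100A4 was the 1 higher DEG (log2FC 0.93, adjusted p = 0.0157) and 0 were lower, with 2.27% and 1.05% among all genes. At any log2FC 9 were higher and 4 lower (12.7% and 11.8% of all genes), and the median was 0.02. VIM, the vimentin gene, was at most 5.33 CPM on average, and it was higher in siGRHL2a than in siTP63b (log2FC 0.52, adjusted p = 0.0293) and siSOX2b (log2FC 0.61, adjusted p = 0.0131). Between siTP63b and siSOX2b there were 2 higher and 2 lower DEGs (3.88% and 2.82% of all genes), among them TNC (log2FC -1.74, adjusted p = 3.22e-17) and AXL (log2FC 1.04, adjusted p = 5.15e-13). At any log2FC 7 were higher and 8 lower (16.4% and 15.4% of all genes), and the median was 0.01. In siKLF5b over siNC1, AXL (log2FC -0.98, adjusted p = 1.16e-08) and MMP2 (log2FC -0.76, adjusted p = 2.6e-09) were lower DEGs, and CCN2 (log2FC 0.85, adjusted p = 0.00266) was the 1 higher DEG. Among all genes, 1.37% were lower and 1.89% higher DEGs there. At any log2FC 7 of the list were lower and 2 higher (12.9% and 10.3% of all genes), and the median was -0.09.

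Of 17 other EMT transcription factors 14 were tested. GSC was a DEG, lower in siTP63b than in siSOX2b (log2FC -2.56, adjusted p = 0.00593) and higher in siGRHL2a than in siTP63b (log2FC 2.63, adjusted p = 0.0048), on at most 18 counts per library. In siTP63b its lowest and median values were 0 CPM and its highest was 0.214 CPM, from 6 counts. GSC was the 1 DEG of 14 in each of these comparisons, with 6.7% and 5.39% among all genes. SNAI2, a snail family repressor gene, was 153.5 ± 21.2 CPM in siTP63b, 245.0 ± 3.0 in siSOX2b and 252.4 ± 18.3 in siGRHL2a, a log2FC of 0.72 for siGRHL2a over siTP63b (adjusted p = 4.41e-10) and 0.04 over siSOX2b (adjusted p = 0.689). There were 0 DEGs of this list in siKLF5b over siNC1, with 3.26% among all genes. There 3 of 14 passed edgeR's adjusted p alone, with 23.2% among all genes. In siGRHL2a over siSOX2b there were also 0, with 3.32% among all genes, and 4 of 14 passed the adjusted p alone, with 24.5% among all genes. The CP2 branch of the grainyhead superfamily (TFCP2, TFCP2L1 and UBP1) had 0 DEGs of 3 in any comparison, with 3.26% to 6.7% among all genes. With 3 genes, no difference from all genes was read from this count. UBP1 was higher in siKLF5b (log2FC 0.35, adjusted p = 3.11e-05) and TFCP2L1 lower in siTP63b than in siSOX2b (log2FC -0.29, adjusted p = 0.0223).

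Among 23 other splicing regulators of epithelial and mesenchymal isoforms, all tested, RBM24 was the 1 DEG in siKLF5b over siNC1, at 0.846 ± 0.185 against 3.18 ± 0.63 CPM (log2FC -1.88, adjusted p = 3.17e-07). That is 4.35% of the list, with 3.26% among all genes. At any log2FC 5 were higher and 8 lower, where 10.3% of all genes were higher and 12.9% lower. CELF2 was higher in siTP63b (log2FC 1.32, adjusted p = 3.97e-15) and in siGRHL2a (log2FC 0.81, adjusted p = 7.58e-10) than in siSOX2b. NOVA2 was lower in siTP63b than in siSOX2b (log2FC -1.42, adjusted p = 0.000525) and higher in siGRHL2a than in siTP63b (log2FC 0.91, adjusted p = 0.0282), at 16 to 60 counts. CELF2 and NOVA2 were the only DEGs of the list in these comparisons. Among all genes, 6.7% were DEGs in siTP63b vs siSOX2b, 5.39% in siGRHL2a vs siTP63b and 3.32% in siGRHL2a vs siSOX2b. RBM47, which works beside the ESRPs in epithelial splicing, was higher in siTP63b than in siSOX2b (log2FC 0.75, adjusted p = 6.64e-12), just under the log2FC threshold, and lower in siGRHL2a than in siTP63b (log2FC -0.48, adjusted p = 5.16e-08). RBM47, CDH1, VIM, SNAI2, MIR205HG, UBP1 and TFCP2L1 were named after their values were seen.

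Over the 15 libraries, after the mean of each column set was subtracted from log2 CPM, GRHL2 varied with OVOL2 (Pearson's r = 0.866) and ESRP1 (r = 0.856), and OVOL2 with ESRP1 (r = 0.80). GRHL3 did not follow GRHL2 (r = -0.122) and was closest among the regulators to ESRP2 (r = 0.613). Among the 15346 genes that averaged 100 counts or more, the genes with the most similar pattern were ENSG00000267787 and ATP8B1 for GRHL2 (both r = 0.979), TTYH3 (r = 0.95) and MCM4 (r = 0.931) for GRHL3, and FSCN3 (r = 0.874) and SLC25A10 (r = 0.866) for GRHL1. They were TGFBR2 (r = 0.966) and MKLN1 (r = 0.958) for OVOL2, SKAP2 (r = 0.941) and PSAT1 (r = 0.939) for ESRP1, and for ESRP2 they included P4HA3 (r = 0.906). These are descriptions over libraries that fall into 5 groups and share column sets. Counts were taken as deposited, so the OVOL2 values include MGME1 and a part of SNX5, and the GRHL3 values include GRHL3-AS1. OVOL1, ZEB1 and ZEB2 were below 100 counts on average and were left out.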

How the data were processed

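The authors aligned paired-end reads of polyadenylated RNA to hg38 with HISAT2 2.2.1, kept unique alignments and counted them on Gencode v40 genes with featureCounts 2.0.1. The deposited table holds unnormalized counts over whole gene spans for 15 libraries. Whether strand was used is not given in the sources used here.

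Counts were analyzed in R 4.3.3 with edgeR 4.0.16. After filterByExpr and TMM scaling, a single quasi-likelihood model covered the 15 libraries, with Benjamini-Hochberg adjustment over 25108 genes, and CPM was computed from TMM-scaled totals. DEGs needed a log2FC beyond 0.75 in size and an adjusted p under 0.05. On simulated counts of 24532 genes made after siKLF5b vs siNC1, the steps called 199 of 200 genes changed by a log2FC of 1.5 and 5 unchanged genes. Smaller changes, such as those of the regulators, were not simulated. Replicates differed by 2.04 to 8.10 chi-square units per gene, above counting noise.

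The regulators and gene lists were chosen with earlier results of these data known. The rule named all 9 regulators, up to 3 DEGs with the smallest adjusted p per list and comparison, genes overlapping a regulator, and the 2 genes of most similar pattern. Some genes that the rule named are not reported here. Gene types and exons came from Gencode 44, and motif and miRNA sequences from RefSeq tables, which held promoters of GRHL1, GRHL3, ZEB1 and ZEB2. Alternatives were RLE and upper-quartile factors, at least 10 counts in every library, no filter, only the 6 libraries compared, DESeq2 1.42.0, the replicate number as a block, halved counts in 9 libraries, protein-coding genes, other log2FC thresholds, each library left out, and inner genes subtracted.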

Additional observations from a re-analysis of the deposited data

How the results depend on the processing

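Of 14 regulator and comparison pairs past an adjusted p of 0.05, 8 stayed past it in all 16 alternatives (GRHL3 and ESRP2 in siKLF5b vs siNC1, GRHL2 and OVOL2 in siTP63b vs siSOX2b, and GRHL2, OVOL2, ESRP1 and ZEB1 in siGRHL2a vs siTP63b), and 14 of the other 18 never passed it. Without a log2FC threshold the counts of regulators called were 2 (siKLF5b vs siNC1), 4 (siTP63b vs siSOX2b), 4 (siGRHL2a vs siTP63b) and 4 (siGRHL2a vs siSOX2b). With a threshold of 1 the count for siGRHL2a vs siTP63b was 0, and with inner genes subtracted that for siGRHL2a vs siSOX2b was 1. Leaving out single libraries, the counts ranged from 0 to 1 in all comparisons but siTP63b vs siSOX2b, where they stayed at 0. Several log2FC values near 0 changed sign. OVOL2 in siKLF5b vs siNC1 was -0.000793 with RLE factors and -0.002 with DESeq2. GRHL3 in siGRHL2a vs siTP63b was -0.00975 with RLE factors, -0.00166 without a filter, -0.00973 with DESeq2, -0.00432 with halved counts and -0.0545 with inner genes subtracted. With inner genes subtracted, OVOL1 in siGRHL2a vs siTP63b was 0.00891, and GRHL3 and OVOL2 in siGRHL2a vs siSOX2b were -0.0522 and 0.0295. The cause of these changes was not tested. In the same leave-one-out fits, log2FC values that crossed 0 ranged from -0.0204 to 0.00434 for OVOL2 in siKLF5b vs siNC1, from -0.00461 to 0.075 for GRHL3 and -0.659 to 0.0551 for ZEB1 in siTP63b vs siSOX2b, from -0.0616 to 0.04 for GRHL3 in siGRHL2a vs siTP63b, and in siGRHL2a vs siSOX2b from -0.199 to 0.0189 for GRHL1, from -0.0205 to 0.0739 for GRHL3 and from -0.00105 to 0.231 for ESRP2. The replicate number was not treated as a pairing in the main fit. Same-numbered libraries had correlations of -0.0312 to 0.0345 between groups, which with 3 libraries per group cannot exclude a weak pairing. Only in siGRHL2a vs siSOX2b did every library correlate best with its own number. With the replicate block the counts of regulators called were 0, 0, 1 and 0, as without it, and those of all genes were 0.984 to 0.993 times as high. With protein-coding genes alone the DEGs among all genes were 496, 980, 821 and 482, and with a threshold of 1 they were 369, 1005, 826 and 485, against 818, 1682, 1354 and 833. With at least 10 counts in every library they were 1090, 897 and 514 in the comparisons other than siKLF5b vs siNC1. By level per kilobase, 36 of 36 pairs of regulators kept their order with a prior count of 2 and 32 with the span as length. Mean counts under 100 limit the precision for OVOL1, ZEB1 and ZEB2.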
